A study of Homo sapiens with 6 samples.

Results

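The genes described here are 54 protein-coding genes named as ribosome biogenesis or nuclear transport factors, out of 5187 genes in the count files. They were chosen by symbol: NOP, NOL, UTP, RRP, POLR1, DDX, WDR, NUP, XPO, IPO, KPNA and KPNB names, with BOP1, NCL, NPM1 and FBL, at a mean of at least 10 counts per library. The rule uses no measured difference, and all 54 passed the filter on low counts, with a lowest mean of 177.5 counts. The pseudogene DDX11L2 and the divergent transcript NUP50-DT, whose symbols also match, were left out. By known function 20 members belong to ribosome biogenesis and 13 to nuclear transport. The other 21 fit the rule by a name or a protein domain and are described apart. DDX marks an RNA helicase and WDR a WD-repeat scaffold. This sorting is not sharp, since DDX39A and DDX19B, among the 21, act in mRNA export.

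RNA was sequenced from Huh7, a cell line from a human liver cancer, in 3 control libraries and 3 libraries from cells given GABA (gamma-aminobutyric acid) for 24 h. All cells grew in DMEM with fetal bovine serum and antibiotics, the controls had no GABA, and the dose is not stated in the labels. The labels call the libraries biological replicates without saying how the cultures were kept apart, so p-values measure the spread between these libraries. In bulk RNA, a change in the share of cells in some state and a change of RNA per cell cannot be told apart.

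Counts on the listed genes summed to 7702666 to 8392945 per library, which are totals over a part of the transcriptome. The files hold almost only genes that differ in this same comparison: the smallest log2 fold change of a tested gene was 0.12 in size, and the order of the genes followed their p-value (Spearman's rho of 0.93, across genes). Of 4981 genes tested, 98.7% passed the threshold of an adjusted p of 0.05, with 47.6% higher and 51.2% lower with GABA, so that passing it says little about a member and the direction is what a count of members can be read for. Control replicate 3 stood apart from the other controls on the second principal component (9.31% of the variance), and it had the highest share of mitochondrially encoded counts. That share also differed between the groups: it was 7.74%, 7.14% and 9.11% in control replicates 1, 2 and 3 and 6.66%, 7.04% and 6.74% in the GABA libraries, without overlap, and its part in the results was not tested. Of the hepatocyte and liver cancer markers only KRT8 and KRT18, which are not specific to liver, were among the listed genes (2 of 10), so the cell type was not checked here. Of 8 leukocyte and endothelial markers none was listed, and the 2 listed of 4 fibroblast markers, COL3A1 and PDGFRB, summed to 408 to 528 counts per library.

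Ribosomes are built in the nucleolus. RNA polymerase I transcribes a long precursor there, small nucleolar RNPs and helicases fold, cut and modify it, and the small subunit processome and a separate set of assembly factors shape the 40S and 60S subunits. The subunits leave, and ribosomal proteins and assembly factors enter, through nuclear pores, which are built from nucleoporins and crossed by cargo bound to importins and exportins under control of the GTPase Ran. Growing cells, liver tumour cells among them, spend a large part of their transcription on this pathway.

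With GABA, 35 of the 54 members rose, 17 fell and 2 did not pass, a share of 64.8% higher beside 47.6% of all tested genes. The median log2 fold change was 0.26 over the members and -0.18 over all tested genes. The surplus lay in the genes sorted to the pathways: 15 of 20 ribosome biogenesis genes rose and 5 fell (median 0.25). Of 13 nuclear transport genes 10 rose, 2 fell and 1 did not pass (median 0.26). Among the 21 genes sorted to other pathways, 10 rose, 10 fell and 1 did not pass (median -0.13). The sorting was made with earlier results of these data known, and the contrast between these sets was not tested. Almost no unchanged gene is listed, so the median of a near-even split falls to either side of an empty zone. The medians of the 21 genes and of all tested genes are of this kind, and their distance from the other medians overstates the difference in counts. All differences were moderate: the median size of the log2 fold change, sign aside, was 0.29 (quartiles 0.23 and 0.38) against 0.40 in all tested genes, or 0.34 in the 3825 tested genes within the members' range of levels. No member reached an absolute log2 fold change of 1, which 10.3% of tested genes did. All members are protein-coding, and of the 4386 tested protein-coding genes 277 reached it. The CPM ranges of the groups did not overlap in 50 members, as in 92.5% of all tested genes. The exceptions were KPNA2, RRP9, DDX60L and IPO7. An absence of overlap, given below for named genes, therefore says little about a gene. Under DESeq2, 35 members rose and 8 fell, and with its size factors in edgeR 35 rose and 10 fell, so that 81.4% and 77.8% of the called members were higher, against 67.3% as reported. The same share over all called genes moved as well, to 54.8% and 53.7% from 48.2%, and the members' share grew because fewer falls passed while the rises stayed at 35. Without GABA replicate 1, 2 or 3, the number of members that fell was 10, 8 and 7.

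**Figure D1:**
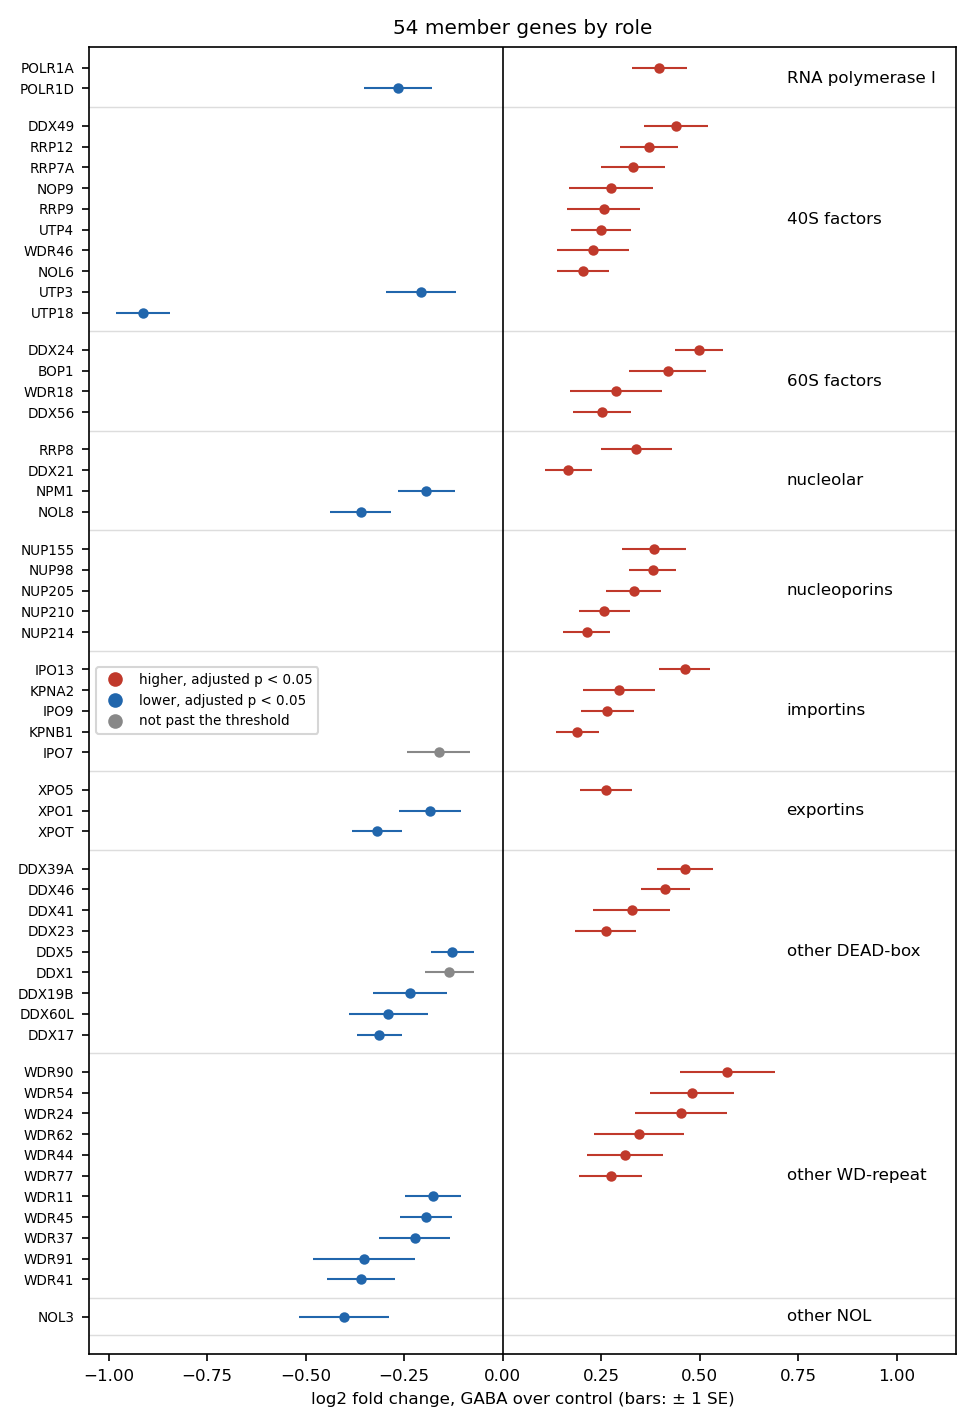
Log2 fold change (GABA over control) of the 54 members with 1 standard error, grouped by role; red points passed an adjusted p of 0.05 upward, blue ones downward, grey ones did not pass. All 5 listed nucleoporins and all 4 listed 60S factors lie to the right of 0, and UTP18, at -0.91, lies farthest from 0.

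**Figure D2:**
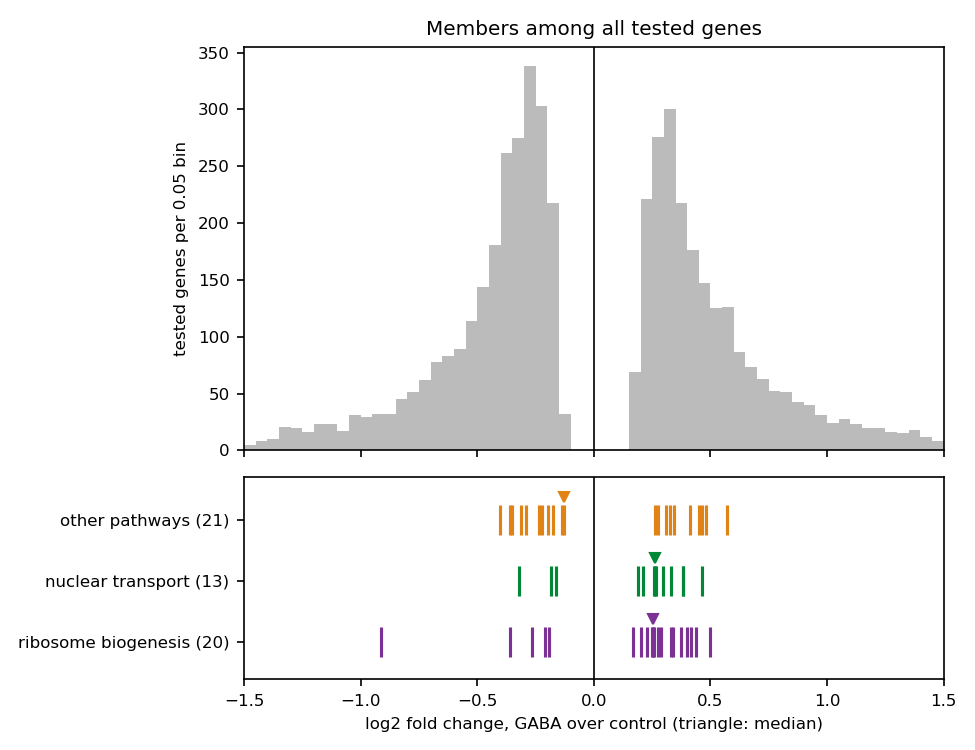
Histogram of the log2 fold changes of the tested genes in bins of 0.05 (157 genes at 1.5 or beyond are outside the axis), with 1 tick per member below and a triangle at each median. The empty zone around 0 shows that the files list almost no unchanged gene; the medians of the ribosome biogenesis and transport members lie at 0.25 and 0.26, and that of the members of other pathways at -0.13.

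The 10 listed genes of the small subunit processome and 40S maturation, of 30 looked for, had 8 rises and 2 falls (median 0.25). Of the falls, 1 was the largest change of any member. UTP18 (ENSG00000011260, chromosome 17, 51260528 to 51297936 on hg38), a WD-repeat protein of the UtpB module of the processome, had 214, 213 and 225 CPM in control replicates 1, 2 and 3 and 113, 121 and 112 in the GABA libraries. CPM is the TMM-scaled count relative to the library's total over the listed genes. The GABA libraries lay far below the controls, with no overlap: 217 ± 6.85 against 115 ± 4.54 (SD, n = 3), a log2 fold change of -0.91 ± 0.07 (SE; edgeR adjusted p = 2.3e-06). Across the alternative fits its value stayed between -0.95 and -0.87. UTP18 was 27th of the 5187 genes in the order of the files.

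The other fall was small. UTP3, the human Sas10 protein of the processome, went from 74.4 ± 5.30 to 64.4 ± 1.74 CPM (log2 fold change -0.21 ± 0.09, edgeR adjusted p = 0.039), and this call was lost in 8 of the 15 alternative fits, among them DESeq2 and the fits without control replicate 2 or any 1 GABA library.

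The 8 rises ran from 0.20 to 0.44. DDX49, a helicase of early 40S processing, had 132, 136 and 114 CPM in the controls and 166, 176 and 175 with GABA (0.44 ± 0.08, adjusted p = 7.1e-04). RRP12, a HEAT-repeat protein that accompanies pre-40S particles to the cytoplasm, had 274, 272 and 236 CPM in the controls and 348, 327 and 336 with GABA (0.37 ± 0.07, adjusted p = 0.0011). In both genes every GABA library exceeded every control, and control replicate 3 was the lowest. RRP7A rose by 0.33 ± 0.08 and NOP9, which binds the 18S part of the precursor, by 0.28 ± 0.11. RRP7A has a near-identical pseudogene copy and shares 15.9% of its exon length with other genes, and NOP9 36.9%, so their counts are uncertain. RRP9, the U3 snoRNP protein also called U3-55K, rose by 0.26 ± 0.09, although GABA replicate 3 (165 CPM) lay below control replicate 2 (165.4 CPM). UTP4 (cirhin, of the UtpA module, whose mutation causes a childhood cirrhosis) rose by 0.25 ± 0.08, WDR46 by 0.23 ± 0.09 and NOL6, of the UtpC module, by 0.20 ± 0.07. Of these 8 calls, NOP9, RRP9, UTP4, WDR46 and NOL6 were each lost without at least 1 library, and without GABA replicate 1 the rises numbered 5. Without control replicate 3, NOP9 was at 0.16, RRP9 at 0.17 and WDR46 at 0.13, and all 3 passed.

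All 4 listed 60S assembly factors, of 20 looked for, rose (median 0.35). DDX24 (chromosome 14, 94048291 to 94081245), a helicase of the large subunit, had 231, 225 and 224 CPM in the controls and 312, 330 and 319 with GABA, the second largest distance from 0 among the ribosome biogenesis members at 0.50 ± 0.06 (adjusted p = 6.5e-05). BOP1, which forms the PeBoW complex with PES1 and WDR12, had 343, 338 and 256 CPM in the controls and 401, 416 and 435 with GABA (0.42 ± 0.10, adjusted p = 0.0029). Control replicate 3 was low for BOP1, and without that library the log2 fold change was 0.29 and still passed. DDX56 rose by 0.25 ± 0.07 and lost its call without GABA replicate 2. WDR18, of the PELP1 and TEX10 complex, went from 53.3 ± 8.75 to 65.1 ± 0.80 CPM (0.29 ± 0.12); it had 56.3, 60.2 and 43.5 CPM in the controls, and without control replicate 3 the value was 0.16 (adjusted p = 0.082). Its call was also lost without any 1 GABA library.

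The catalytic subunit and a shared subunit of RNA polymerase I moved in opposite directions. POLR1A, the largest subunit, had 322, 342 and 293 CPM in the controls and 429, 410 and 420 with GABA (0.40 ± 0.07, adjusted p = 6.0e-04), with no overlap of the groups. POLR1D, a small subunit that RNA polymerase III also uses, had 169, 170 and 204 CPM in the controls and 152, 159 and 141 with GABA (-0.27 ± 0.09, adjusted p = 0.013). For POLR1D the high control was replicate 3; without it the value was -0.17 (adjusted p = 0.010), and without GABA replicate 3 the call was lost.

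The 4 proteins with several nucleolar tasks were split. NPM1, nucleophosmin, an abundant nucleolar chaperone that shuttles to the cytoplasm, had by far the highest level per length among the members (848 CPM per kb of annotated exon, against 241 for DDX21, the next). It had 3413, 3164 and 3811 CPM in the controls and 2972, 3145 and 2965 with GABA (-0.19 ± 0.07, adjusted p = 0.023). Control replicate 2 and GABA replicate 2 nearly met, the value was -0.12 without control replicate 3, and the call was lost with DESeq2, with its size factors in edgeR and without GABA replicate 1 or 3; many pseudogene copies of NPM1 make its count uncertain. NOL8, a nucleolar RNA-binding protein, fell from 168 ± 13.4 to 131 ± 4.48 CPM (-0.36 ± 0.08, adjusted p = 0.0018). RRP8, a nucleolar methyltransferase tied to silencing of ribosomal DNA, rose by 0.34 ± 0.09. DDX21, a helicase that links polymerase I transcription to processing, had 1117, 1094 and 1207 CPM in the controls and 1269, 1316 and 1250 with GABA (0.17 ± 0.06, adjusted p = 0.020), and lost its call without control replicate 1 or 2 or GABA replicate 1 or 2.

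NCL, FBL, NOP56, NOP58, NOP2 and POLR1B, core genes of the same pathway, are not listed in the files and were not analysed here, nor was any of the 5 genes of the core snoRNP list.

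**Figure D3:**
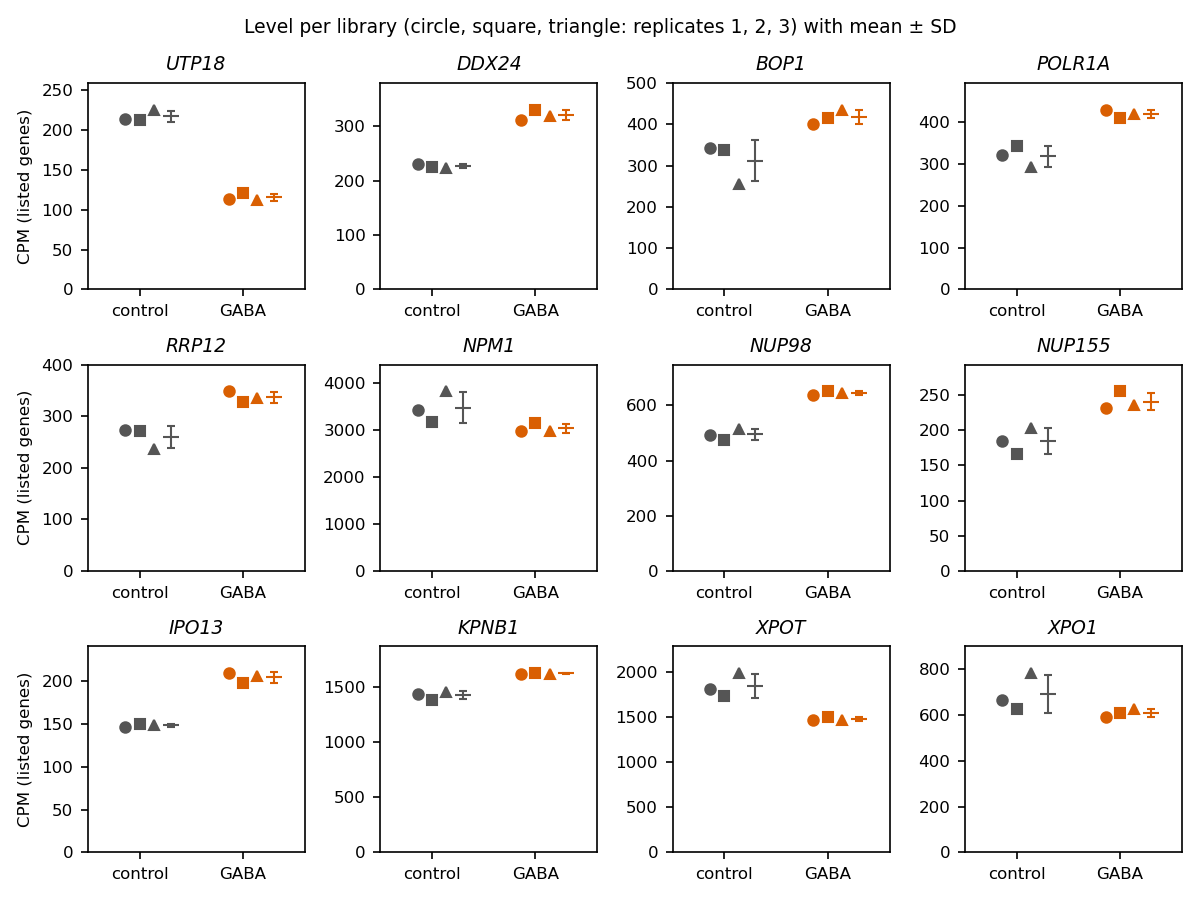
CPM in each library for 12 members, with symbols for replicates 1, 2 and 3 and the mean ± SD of each group beside them; axes start at 0. UTP18 is the gene whose groups lie farthest apart, and in BOP1, NPM1 and XPO1 the triangle of control replicate 3 lies apart from the other controls.

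Promoter sequence, which the choice by name did not use, was searched for motifs that were chosen after the values were seen. The shares below were not tested. RefSeq windows (GRCh38.p14) from 250 bases before to 50 bases after each start were found for 49 of the 54 members, 63 windows in all. The letters CACGTG, the E-box bound by MYC, MAX, USF and related factors, were present in a window of 7 of 17 ribosome biogenesis members (41.2%), 2 of 12 transport members (16.7%) and 3 of 20 others (15%). They were present in 12.5% of the 3735 tested genes with a window and in 8.77% of all 27305 genes in the table; by window, the shares were 33.3% of the 21 ribosome biogenesis windows, 9.16% of the 5556 windows of tested genes and 7.26% of all 35116. CACGTG is its own reverse complement, so 1 search covers both strands. The match did not separate the directions: it was found in 7 of 30 members that rose (23.3%) and 4 of 17 that fell (23.5%). UTP18, the member that fell most, was the 1 with 2 matches, at -89 and +5 from its start. The sequences below show where the letters lie; all are 5′ to 3′ on the gene's strand, with CACGTG in capitals, and run from base -60 to base +20 around the start, except that of UTP18, which begins 250 bases before the start.
UTP18 (chr17:51260296-51260565, plus strand): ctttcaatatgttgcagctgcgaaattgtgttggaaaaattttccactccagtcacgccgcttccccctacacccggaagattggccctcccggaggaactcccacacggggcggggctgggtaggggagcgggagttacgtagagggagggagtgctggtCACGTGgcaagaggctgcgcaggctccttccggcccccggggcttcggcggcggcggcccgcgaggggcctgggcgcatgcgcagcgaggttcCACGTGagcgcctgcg
RRP9 (chr3:51941885-51941964, minus strand): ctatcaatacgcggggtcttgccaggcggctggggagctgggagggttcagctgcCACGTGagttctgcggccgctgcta
UTP4 (chr16:69132589-69132668, plus strand): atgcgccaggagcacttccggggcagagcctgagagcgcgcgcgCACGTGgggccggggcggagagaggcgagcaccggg
NOL6 (chr9:33473905-33473984, minus strand): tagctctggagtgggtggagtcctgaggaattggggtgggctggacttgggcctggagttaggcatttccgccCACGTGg
NOL8 (chr9:92325331-92325410, minus strand): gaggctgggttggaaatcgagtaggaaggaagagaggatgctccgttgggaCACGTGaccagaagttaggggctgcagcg
DDX21 (chr10:68956587-68956666, plus strand): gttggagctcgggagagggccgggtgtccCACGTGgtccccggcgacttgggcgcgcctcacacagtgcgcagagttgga

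Among the sequences shown, RRP9, UTP4, NOL6 and DDX21 rose and UTP18 and NOL8 fell, with each match starting between base -89 and base +14. For DDX21 the match lies in the second of its RefSeq start windows, and WDR46, the other ribosome biogenesis member with a match, has it at +42. Of 5 further motifs searched on both strands in the same windows, the ETS letters CCGGAAG were found in 7 of the 17 ribosome biogenesis members (41.2%) and in 19.9% of tested genes, and CCAAT in 10 (58.8%) against 43.2%. The NRF1 motif, searched as a palindrome of 10 letters, was found in 2 of the 17, UTP18 and WDR18, against 2.33% of tested genes. TTTCCCGC (E2F) and the YY1 motif were each found in WDR18 alone of the 17, against 3.4% and 2.89% of tested genes. A match shows only that the letters are present.

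All 5 listed nucleoporins, of 23 looked for, rose, and all 5 calls held in each alternative fit. Genes that are not listed could not be measured here, so counts of listed genes do not describe the whole class. NUP98 (chromosome 11, 3671083 to 3797792), an FG-repeat nucleoporin of the transport channel, had 493, 475 and 515 CPM in the controls and 637, 650 and 643 with GABA (0.38 ± 0.06, adjusted p = 2.7e-04). NUP155, of the inner ring, had 184, 166 and 203 CPM in the controls and 232, 255 and 235 with GABA (0.38 ± 0.08, adjusted p = 0.0017). NUP205, another inner ring scaffold, went from 229 ± 15.7 to 289 ± 8.43 CPM (0.33 ± 0.07, adjusted p = 0.0015). None of the GABA libraries overlapped a control in these genes. NUP210, which spans the nuclear membrane, rose by 0.26 ± 0.07, and NUP214, on the cytoplasmic face, by 0.21 ± 0.06, with 3 GABA libraries that differed by less than 1 CPM (334 ± 0.27).

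Of 5 listed importins, among 15 looked for, 4 rose and IPO7 did not pass. IPO13, which carries cargo both ways, had 147, 150 and 149 CPM in the controls and 210, 198 and 206 with GABA (0.46 ± 0.06, adjusted p = 1.4e-04), the largest change of any transport member. IPO9, an importer of actin, histones and ribosomal proteins, rose by 0.26 ± 0.07. KPNB1, importin beta 1, the main import carrier (chromosome 17, 47649476 to 47685505), had 1434, 1382 and 1452 CPM in the controls and 1621, 1627 and 1618 with GABA (0.19 ± 0.06, adjusted p = 0.0081), a small rise with groups well apart. Its adaptor KPNA2, importin alpha 1, had 615, 581 and 770 CPM in the controls and 800, 845 and 768 with GABA (0.30 ± 0.09, adjusted p = 0.011). There control replicate 3 exceeded GABA replicate 3 by 2 CPM, so the groups overlapped; without control replicate 3 the value was 0.42. IPO7, an importer of ribosomal proteins, had 1255, 1166 and 1471 CPM in the controls and 1163, 1185 and 1128 with GABA (-0.16 ± 0.08, adjusted p = 0.060). IPO7 was at -0.07 without control replicate 3, and passed as a fall without control replicate 2 (-0.24, edgeR adjusted p = 0.0090) and when libraries were scaled to fit the order of the files (-0.18, edgeR adjusted p = 0.039).

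Of the 3 listed exportins, among 6 looked for, XPO5 rose and XPOT and XPO1 fell. XPO5, the exporter of microRNA precursors, had 346, 333 and 367 CPM in the controls and 404, 434 and 417 with GABA (0.26 ± 0.07, adjusted p = 0.0038). XPOT, the tRNA exporter (chromosome 12, 64404350 to 64451127), had 1810, 1737 and 1988 CPM in the controls and 1467, 1501 and 1467 with GABA (-0.32 ± 0.06, adjusted p = 0.0012), and held its call in all 15 alternative fits. XPO1 (CRM1), the general protein exporter that also takes out both ribosomal subunits, had 665, 627 and 784 CPM in the controls and 592, 609 and 625 with GABA (-0.18 ± 0.08, adjusted p = 0.039). The XPO1 groups nearly touched, its value was -0.09 without control replicate 3 (adjusted p = 0.085), and the call was also lost with DESeq2, with its size factors in edgeR and without any 1 GABA library.

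As shares of the listed counts, the 5 nucleoporins together held 0.137% ± 0.003 in the control and 0.173% ± 0.002 in the GABA libraries, and the 4 60S factors 0.077% ± 0.006 and 0.103% ± 0.003 (SD, n = 3). The exportins held 0.287% ± 0.019 and 0.252% ± 0.003. In each of these 3 groups the GABA libraries lay outside the range of the controls. The 20 ribosome biogenesis genes together also did not overlap (0.781% ± 0.015 and 0.811% ± 0.013). The RNA polymerase I, 40S and importin groups held more with GABA without overlap, and NOL3 held less. The groups overlapped for the 13 transport genes together (0.790% ± 0.046 and 0.826% ± 0.007), for the 4 multifunctional nucleolar genes, where NPM1 has most of the counts (0.481% ± 0.033 and 0.456% ± 0.012), for the DEAD-box and WD-repeat genes of other pathways, and for all 54 members (2.06% ± 0.05 and 2.12% ± 0.01). Without NPM1, the other 53 members held 1.72% ± 0.03 and 1.81% ± 0.003, with no overlap.

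Control replicate 3 placed the 2 pathways on opposite sides of the other controls. It was the lowest control for 12 of 20 ribosome biogenesis genes and the highest for 7, whereas for the 13 transport genes it was the highest for 10 and the lowest for 2. Its median log2 distance from the mean of the controls was -0.10 over the ribosome biogenesis genes and 0.07 over the transport genes. The part of this library in the results was measured by the fit without it, in which 14 ribosome biogenesis genes rose and 5 fell, 10 transport genes rose and 1 fell, and the medians were 0.19 and 0.30. In 9 of the 54 members, DDX41, IPO7, NOP9, NPM1, POLR1D, RRP9, WDR18, WDR46 and XPO1, leaving it out made the change smaller by a factor of more than 1.5. The controls varied more than the GABA libraries: the median coefficient of variation of a member was 7.67% in the controls and 3.12% with GABA, and it was higher in the controls for 45 of 54 members.

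The 9 DEAD-box helicases of other RNA processes had 4 rises, 4 falls and 1 that did not pass. DDX39A, an mRNA export helicase, had 178, 189 and 161 CPM in the controls and 244, 245 and 238 with GABA (0.46 ± 0.07, adjusted p = 2.6e-04). DDX46, the human Prp5 of the spliceosome, rose by 0.41 ± 0.06 (270 ± 8.02 to 359 ± 10.4 CPM). DDX41 and DDX23, both linked to splicing, rose by 0.33 ± 0.10 and 0.26 ± 0.08, with 0.21 for DDX41 without control replicate 3. DDX17, a cofactor of splicing and transcription, had 940, 949 and 926 CPM in the controls and 771, 724 and 771 with GABA (-0.31 ± 0.06, adjusted p = 7.1e-04). Its close paralog DDX5 fell less, at -0.13 ± 0.06 (adjusted p = 0.042), was at -0.08 with DESeq2 and with its size factors in edgeR, and passed in 7 of the 15 alternative fits; the difference between the paralogs was not tested. DDX60L fell by 0.29 on the log2 scale and DDX19B, which releases mRNA at the pore and has a near-identical paralog, by 0.24. Both of these calls were lost without GABA replicate 2 or 3, and that of DDX19B also with DESeq2. DDX1, of the tRNA ligase complex, was at -0.14 ± 0.06 (adjusted p = 0.051).

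The 11 WD-repeat genes of other pathways also went both ways, with 6 rises and 5 falls. WDR90, a centriole protein, had the largest rise of any member, with 32.2, 36.0 and 27.6 CPM in the controls and 51.8, 43.3 and 47.1 with GABA (0.57 ± 0.12, adjusted p = 0.0017). It lies 16789 bases from WDR24, a subunit of the amino acid sensing complex GATOR2, which rose by 0.45 ± 0.12 and shares 35.7% of its exon length with other genes, against 12.6% for WDR90. WDR54 had 70.2, 62.4 and 52.5 CPM in the controls and 89.1, 81.7 and 87.6 with GABA (0.48 ± 0.11). These 3 genes did not overlap between the groups. WDR62, of the spindle poles, rose by 0.35 (a call lost without control replicate 1), WDR44, a RAB11 partner, by 0.31, and WDR77, the PRMT5 cofactor MEP50, by 0.27, although 36.5% of the exon length of WDR77 overlaps other genes.

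WDR41, a partner of C9orf72, had 148, 145 and 176 CPM in the controls and 124, 125 and 116 with GABA (-0.36 ± 0.09, adjusted p = 0.0033). WDR91, an endosomal RAB7 partner, was at -0.35 ± 0.13, the lowest level per length of the members (3.69 CPM per kb), and lost its call with DESeq2 and without control or GABA replicate 2. WDR37, the autophagy gene WDR45 and WDR11 were at -0.22, -0.20 and -0.18. All 3 lost their calls with DESeq2 and without GABA replicate 2 or 3. NOL3, an inhibitor of apoptosis also called ARC and no ribosome factor despite its name, had 77.7, 97.5 and 70.3 CPM in the controls and 63.3, 61.5 and 60.8 with GABA (-0.40 ± 0.11, adjusted p = 0.0073); without control replicate 2 the value was -0.26.

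Genes of the same pathways under other names were tested in 7 lists, of which 38 genes were among those tested. Of these 28 rose (73.7%, beside 47.6% of all tested genes) and 10 fell (median 0.30). Most genes of each list were not among the listed genes. The lists were chosen with earlier results of these data known, so they are no independent check. All 7 listed genes of other pore and envelope proteins, of 17 looked for, rose (median 0.31). Among them were LMNB2, a B-type lamin, from 342 ± 70.8 to 532 ± 11.9 CPM (0.64 ± 0.12, edgeR adjusted p = 7.5e-04) and LMNA, which encodes the A-type lamins, by 0.43 ± 0.09. In the Ran and transport receptor list 5 of 6 rose; RANGAP1, the GTPase activator of Ran, went from 441 ± 43.2 to 664 ± 22.1 CPM (0.59 ± 0.07, adjusted p = 7.5e-05), and TNPO2, a transportin, rose by 0.43 ± 0.09.

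Other 40S factors had 6 rises and 1 fall. NAT10, the acetyltransferase of 18S rRNA, rose by 0.38 ± 0.06, and DIMT1, its dimethyltransferase, fell from 165 ± 22.2 to 113 ± 5.18 CPM (-0.55 ± 0.09, adjusted p = 5.2e-04). Other 60S factors had 5 rises and 3 falls, with the GTPase LSG1 at 0.37 ± 0.07 and the AAA ATPase midasin, MDN1, at 0.43 ± 0.08. Of 2 polymerase I factors, TCOF1, treacle, rose by 0.42 ± 0.09 and TAF1D, a subunit of the SL1 complex, fell from 385 ± 56.8 to 229 ± 5.06 CPM (-0.75 ± 0.09, adjusted p = 6.0e-05). TAF1D had 350, 354 and 450 CPM in control replicates 1, 2 and 3. It shares 17.3% of its exon length with other genes, so its count is uncertain. In the snoRNP list 2 rose and 1 fell, with RUVBL2, an assembly ATPase, at 0.49 ± 0.10 and GAR1, an H/ACA protein, at -0.25 ± 0.08. The RNA exosome list had 2 rises and 3 falls: EXOSC6 fell from 237 ± 18.6 to 151 ± 2.90 CPM (-0.65 ± 0.07, adjusted p = 3.2e-05), and EXOSC4 rose by 0.53 ± 0.13. The count of EXOSC4 is uncertain as well, since 24.4% of its exon length overlaps other genes.

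**Figure D4:**
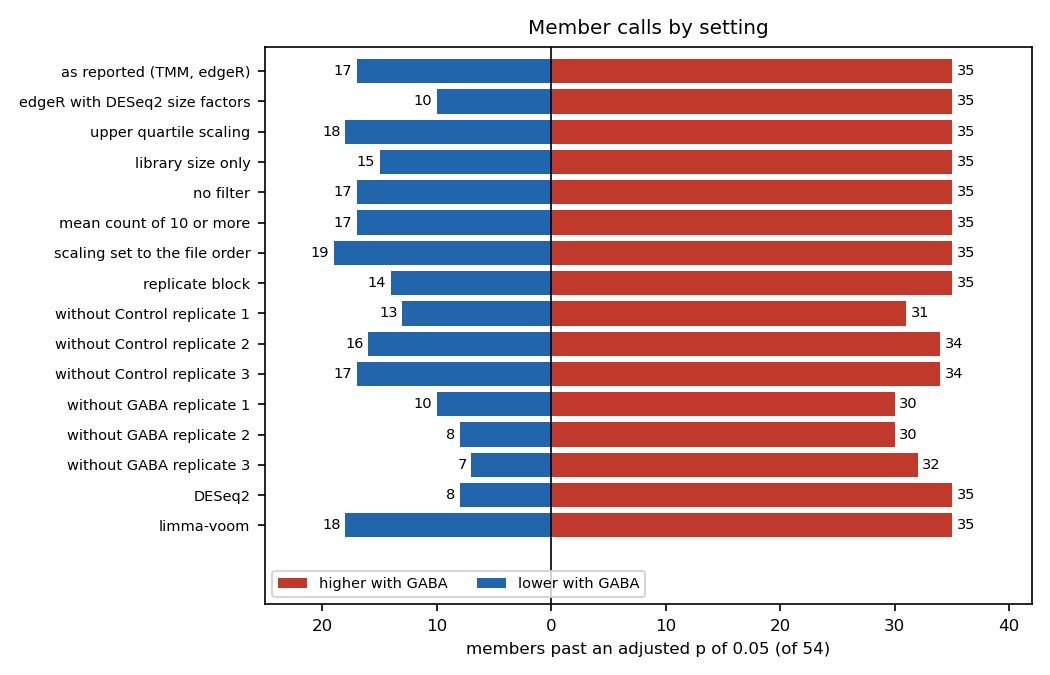
Number of members past an adjusted p of 0.05, higher with GABA (red, to the right) or lower (blue, to the left), in the reported fit and in each of 15 alternative fits. The count of rises stays between 30 and 35, and that of falls runs from 7 to 19.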

How the data were processed

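The values are integer read counts per gene as deposited by the authors, 1 file per library with Ensembl gene identifiers. CASAVA 1.8 and Bowtie 0.12.2 with build hg38 are named in the submitters' processing notes; the counting program, annotation release, strand setting and selection of genes are not given in the sources used here, so overlapping and near-copy genes are uncertain. Symbols came from a gene name table (5173 genes) and GENCODE release 29 (14 genes), which also gave gene types and exon lengths. In edgeR 4.0.16 (R 4.3.3), filterByExpr (minimum count 10, minimum total 15) left 4981 genes. TMM scaling, a robust quasi-likelihood fit and its F test compared 3 GABA with 3 control libraries, with Benjamini-Hochberg adjustment over all tested genes. Since nearly all of these genes differ, weak adjusted p-values lie close to unadjusted ones (edgeR F test, 0.0603 and 0.0600 for IPO7). The adjustment does not cover the genes that are not listed, so the adjusted p-values are smaller than over a whole transcriptome. Depth is counts on listed genes only. DESeq2 1.42.0, limma 3.58.1 (voom), other scalings and filters, a replicate block and each library left out were alternatives.

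Named genes were, per role, the 3 with the smallest p, the 5 largest rises and falls, a fixed set of core genes and those against their group's majority; other members are named to account for all 54. The members, lists, alternatives and naming rule were chosen with earlier results of these data known, and the motifs and the sequences shown after the values were seen. In counts simulated for this comparison on 4960 genes, the fit found 91% of log2 changes of 0.5 and 100% of changes of 1, and called 0.29% of unchanged genes. The simulation left 4760 genes unchanged, gave all genes the same dispersion and had no selection of genes. Changes of the members' median size, 0.29, were not simulated, so these rates check the fit and do not describe the listed genes. Sequences are RefSeq's. Tables were handled with pandas 2.3.3.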

Additional observations from a re-analysis of the deposited data

How the results depend on the processing

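No member changed direction in any of 15 alternative fits: of 810 member values 729 kept their call, 74 lost it and 7 gained it, and 32 members (26 higher, 6 lower) passed in every fit. Because the files list genes that differ in this comparison, this stability was largely fixed beforehand. The 17 falls became 10 with DESeq2 size factors in edgeR and 8 with DESeq2, and 7 to 17 with a library left out; the 35 rises became 30 to 34 with a library left out. The count of all listed genes past the threshold, 4918 as reported, were 4025 to 4735 with a library left out. An absolute log2 fold change of 1 or more left 0 members higher, 0 lower and 515 listed genes, by its construction. The replicate block gave 35 rises and 14 falls; same-numbered libraries did not deviate together (correlations 0.0003, -0.089 and -0.036), and 0 of 6 libraries correlated best with its own number. A scaling set to the file order (a log2 shift of 0.02) gave 35 and 19. In the role groups, the falls of the DEAD-box group (4) became 2 with DESeq2 and 1 without GABA replicate 2 or 3, those of the WD-repeat group (5) became 1 with DESeq2 and without GABA replicate 2, and the rises of the 60S group (4) became 2 without GABA replicate 2. The other counts that moved by over 1.5 times were counts of 8 or fewer genes. The causes were not tested. WDR91, the member with the lowest level per length, passed in 12 of the 15 alternative fits. DDX5, among the abundant members, passed in 7.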

Other observations

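The left-out transcripts whose symbols match these families rose by more than any member rose. Neither is protein-coding. An absolute log2 fold change of 1 or more was found in 515 of 4981 tested genes and in 277 of the 4386 protein-coding ones. Large changes were thus more frequent among genes that are not protein-coding, whatever their names. NUP50-DT, a long noncoding transcript on chromosome 22 named for its start beside NUP50, had 10.9, 14.8 and 11.4 CPM in control replicates 1, 2 and 3 and 19.8, 26.0 and 20.2 in the GABA libraries (log2 fold change 0.83 ± 0.17 (SE), edgeR adjusted p = 0.0013). DDX11L2, a pseudogene on chromosome 2 with several near-identical copies, had 20.8, 16.3 and 12.8 CPM in the controls and 31.9, 39.9 and 33.8 with GABA (1.08 ± 0.16, edgeR adjusted p = 2.4e-04), so its reads are uncertain. Both are rare beside the members, whose median level was 200.2 CPM.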
